A study of Mus musculus with 13 samples.

Results

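The 10 genes described here are 8 Toll-like receptors of the mouse, the co-receptor Cd14 and the adaptor Myd88, chosen by symbol. All 10 were found among the 55536 gene identifiers of the deposited files. Messenger RNA was sequenced from the frontal cortex of 5XFAD mice and of wild-type mice of the strain B6SJLF1/J. The 13 libraries formed 4 groups by genotype and age: 3 of 5XFAD and 3 of wild type at 11 months, and 3 of 5XFAD and 4 of wild type at 6 months. 5XFAD mice express mutant human transgenes, including APP, from Thy1 regulatory sequence, which drives them mainly in neurons, and they deposit amyloid in the brain. The labels name no treatment, sex or litter. They do not say whether a library is 1 animal, so the spread behind each p-value is that of libraries and may be technical in part.

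Toll-like receptors are membrane proteins of innate immune cells that bind molecules of microbes or of damaged cells. Tlr1, Tlr2, Tlr4 and Tlr6 act at the cell surface and bind mainly lipids and lipoproteins, while Tlr3, Tlr7, Tlr9 and Tlr13 act in endosomes and bind nucleic acids. Except for Tlr3, these receptors pass their signal through the adaptor MyD88 to kinases that activate NF-kB and interferon regulatory factors. In the brain they are found chiefly on microglia, the resident macrophages, with Tlr3 also known from astrocytes.

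Library totals ran from 23618289 to 26615772 counts. Thy1, which carries the transgene promoter, stood at 2154 to 3249 CPM (counts scaled to the library total) in the 5XFAD libraries and at 543 to 783 CPM in wild type, so the genotypes did not overlap. Wild-type replicate 1 at 6 months stood apart by its choroid plexus genes, whose 6 markers summed to 2970 CPM there, against 5.33 to 37.8 CPM in the other 12 libraries. The 22 microglial marker genes, identity genes such as P2ry12 and general genes such as Aif1 and Csf1r, were present in every library. Their mean log2 CPM was 6.43 ± 0.26 in 5XFAD and 4.87 ± 0.38 in wild type at 11 months, and 5.56 ± 0.06 in 5XFAD and 4.40 ± 0.03 in wild type at 6 months (SD). In whole tissue, more cells of a type and more RNA per cell cannot be told apart, which holds for every difference below. Markers of other immune cells were low. The 6 neutrophil genes summed to 0.581 to 4.07 CPM in 5XFAD and 0.242 to 0.598 CPM in wild type at 11 months, where Ly6g was at 0 in wild type, and to 0.635 to 2.35 CPM in 5XFAD and 0.246 to 0.858 CPM in wild type at 6 months. The 6 genes of B cells and plasmacytoid dendritic cells summed to at most 1.05 CPM in any library. The 9 genes of border macrophages and monocytes summed to 3.39 to 5.89 CPM in 5XFAD and 2.99 to 4.66 CPM in wild type at 11 months, and to 1.94 to 2.27 CPM in 5XFAD and 1.67 to 2.95 CPM in wild type at 6 months. The part of these cells in the results was not tested.

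Between 5XFAD and wild type, transcripts of the surface pair Tlr1 and Tlr2 and of Cd14 were several-fold higher in 5XFAD at both ages, the endosomal receptor Tlr7 likewise, and Tlr13 at 11 months. Adjusted over all 17518 genes tested by edgeR, 5 of the 10 genes rose at 11 months and 4 at 6 months, and none fell. The same 4 genes were called at 6 months without wild-type replicate 1, the library with the choroid plexus genes. Among all genes tested, 3.78% rose and 0.497% fell at 11 months, and 1.3% rose and 0.0171% fell at 6 months. The median log2 fold change of the 10 genes was 1.64 at 11 months and 1.09 at 6 months, against -0.03 and -0.01 over all genes. The libraries of the genotypes did not overlap, with 5XFAD higher, for 9 of the 10 genes at 11 months and 8 at 6 months, against 10.4% and 6.96% of all genes, and 8.77% and 5.05% of all genes did not overlap with 5XFAD lower. All 10 passed the filter on low counts, but they are not abundant: Tlr9 was read only 5 to 49 times per library and Tlr4 8 to 46 times, against 42 to 609 times for Cd14.

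**Figure D1:**
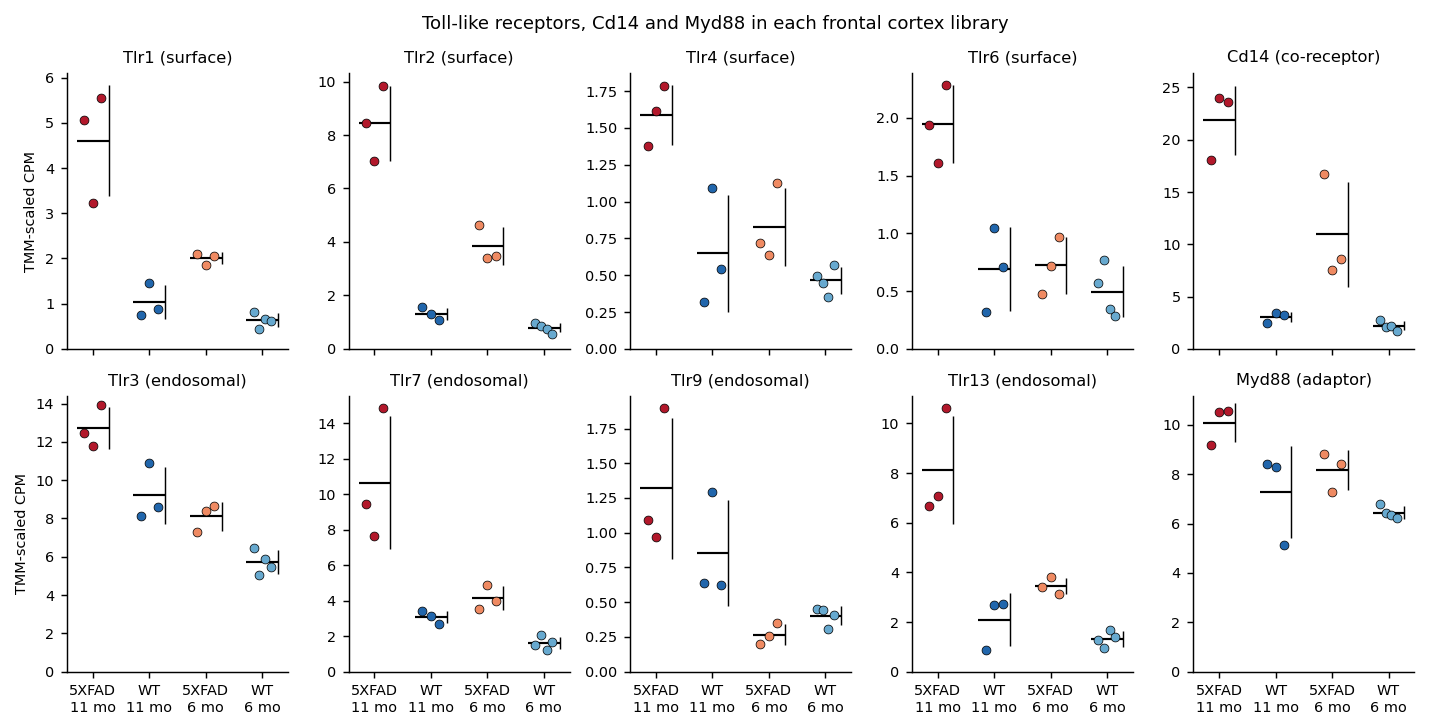
TMM-scaled CPM of each gene (vertical axes, each starting at 0) in each of the 13 libraries, by group; horizontal lines are group means and vertical lines their SD. The 5XFAD libraries of Tlr2, Cd14, Tlr1, Tlr7 and Tlr13 lie above all wild-type libraries of the same age, while those of Tlr9 overlap with wild type.

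On TPM, which scale for transcript length and so allow levels to be compared between genes, Cd14 led in 5XFAD cortex with 20.8 ± 2.9 at 11 months and 10.1 ± 4.6 at 6 months (SD, n = 3 each). Myd88 led in wild-type cortex with 5.89 ± 1.6 TPM at 11 months (n = 3) and 5.09 ± 0.13 TPM at 6 months (n = 4). By group mean, Tlr3 was the most abundant receptor of the 8 in each of the 4 groups. At 11 months it stood at 5.33 ± 0.36 TPM in 5XFAD and 4.04 ± 0.14 TPM in wild type. At 6 months it stood at 3.62 ± 0.55 TPM in 5XFAD and 2.56 ± 0.27 TPM in wild type. In 5XFAD at 11 months the order ran on with Tlr2 (3.87 TPM), Tlr7 (3.82), Tlr13 (2.7), Tlr1 (2.36), Tlr6 (0.72), Tlr4 (0.53) and Tlr9 (0.52). The ranges of neighbours overlapped from Tlr2 down to Tlr1 and again between Tlr4 and Tlr9. These steps of the order thus did not exceed the spread between libraries. In replicate 3 of that group Tlr7 (5.16 TPM) stood level with Tlr3 (5.15 TPM), so the lead of Tlr3 did not hold in every library. In wild type at 11 months every step below Tlr7, from Tlr13 (0.75 TPM) to Tlr4 (0.23 TPM), lay within the spread.

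Tlr2 (chromosome 3, 83836272 to 83841767, GRCm38, minus strand), the receptor for bacterial lipoproteins that pairs with Tlr1 or Tlr6, had 8.45, 7.02 and 9.84 CPM in 5XFAD libraries against 1.55, 1.29 and 1.08 CPM in wild-type libraries at 11 months. At 6 months it had 4.65, 3.38 and 3.46 CPM in 5XFAD and 0.983, 0.853, 0.737 and 0.572 CPM in wild type. Every 5XFAD library stood above every wild-type library, at either age. The difference was 6.42-fold at 11 months (log2 fold change 2.68 ± 0.24 SE, adjusted p = 9.38e-06) and 4.85-fold at 6 months (2.28 ± 0.22, adjusted p = 7.79e-05).

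Tlr1 (chromosome 5, 64924679 to 64933563, minus strand), the partner of Tlr2 for triacylated lipoproteins, had 5.06, 3.23 and 5.54 CPM in 5XFAD against 0.757, 1.45 and 0.875 CPM in wild type at 11 months. At 6 months the values were 2.11, 1.86 and 2.06 CPM in 5XFAD and 0.819, 0.447, 0.659 and 0.613 CPM in wild type. The genotypes did not overlap, and the 5XFAD libraries at 6 months lay close together. Tlr1 rose by 2.16 ± 0.30 on the log2 scale at 11 months (adjusted p = 0.000496) and by 1.66 ± 0.29 at 6 months (adjusted p = 0.00807). The call at 6 months ended on log2(TPM + 1) values tested with limma (adjusted p = 0.0607). Tlr6 is the neighbour and close relative of Tlr1 on chromosome 5 (64952031 to 64960097). The expected counts of both were not whole in 8 of 13 libraries, and lay at most 0.45 from the nearest whole number. That distance does not show how many reads were shared. The sum of both genes was whole in all 13, as were the counts of the other 8 genes (within 0.005 of a count). Some reads were thus split between Tlr1 and Tlr6, and how that split fell between the genes is uncertain.

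Tlr6, which joins Tlr2 for diacylated lipoproteins, and Tlr4 (chromosome 4, 66827584 to 66930284, plus strand), the receptor for lipopolysaccharide, were low in every group. Tlr6 ran from 1.61 to 2.29 CPM in 5XFAD and from 0.319 to 1.05 CPM in wild type at 11 months, a log2 difference of 1.49 ± 0.43 (adjusted p = 0.0779). At 6 months it ran from 0.477 to 0.972 CPM in 5XFAD and from 0.286 to 0.772 CPM in wild type, which overlapped (0.54 ± 0.44, adjusted p = 0.794). Tlr4 ran from 1.38 to 1.78 CPM in 5XFAD and from 0.319 to 1.09 CPM in wild type at 11 months (1.28 ± 0.40, adjusted p = 0.0969), and from 0.635 to 1.13 CPM in 5XFAD and from 0.349 to 0.572 CPM in wild type at 6 months (0.83 ± 0.39, adjusted p = 0.553). Neither gene passed the test at either age, although the 11-month libraries of the genotypes did not overlap. The highest wild-type library of both genes at 11 months was replicate 2, and without it both passed (adjusted p = 0.0406 for Tlr6 and 0.0147 for Tlr4). DESeq2 called Tlr6 at 11 months (adjusted p = 0.0274).

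Cd14 (chromosome 18, 36725067 to 36726798, minus strand), which hands lipopolysaccharide to Tlr4 and lipoproteins to Tlr2, had the largest fold of the 10 genes at 11 months and stood level with Tlr2 at 6 months. It had 18.1, 23.99 and 23.6 CPM in 5XFAD against 2.47, 3.39 and 3.25 CPM in wild type at 11 months, and 16.7, 7.57 and 8.55 CPM in 5XFAD against 2.79, 2.11, 2.21 and 1.72 CPM in wild type at 6 months. The genotypes did not overlap, and 5XFAD replicate 1 at 6 months came close to the 11-month level while the other two lay between it and wild type. The fold was 7.2 at 11 months (log2 fold change 2.85 ± 0.28, adjusted p = 3.06e-05) and 4.95 at 6 months (2.31 ± 0.26, adjusted p = 0.000234).

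Myd88 (chromosome 9, 119335934 to 119341411, minus strand), the adaptor shared by all these receptors but Tlr3, differed far less. It had 9.18, 10.5 and 10.6 CPM in 5XFAD against 8.41, 8.28 and 5.12 CPM in wild type at 11 months, and 8.82, 7.28 and 8.43 CPM in 5XFAD against 6.80, 6.42, 6.36 and 6.21 CPM in wild type at 6 months. The 5XFAD libraries lay just above those of wild type, and the gene did not pass the test (0.47 ± 0.17, adjusted p = 0.164 at 11 months; 0.34 ± 0.16, adjusted p = 0.546 at 6 months). An exon of Myd88 overlaps one of Acaa1a on the opposite strand, and whether the counting used strand is not given in the sources used here, so reads of these genes may be mixed.

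Among the endosomal receptors, Tlr7 (chromosome X, 167304929 to 167330558, minus strand), which binds single-stranded RNA, rose at both ages. It had 9.42, 7.66 and 14.8 CPM in 5XFAD against 3.43, 3.11 and 2.71 CPM in wild type at 11 months, and 3.54, 4.91 and 4.003 CPM in 5XFAD against 1.47, 2.07, 1.24 and 1.67 CPM in wild type at 6 months. The genotypes did not overlap, and 5XFAD at 6 months lay just above wild type at 11 months. Tlr7 rose by 1.79 ± 0.25 on the log2 scale at 11 months (adjusted p = 0.000559) and by 1.36 ± 0.24 at 6 months (adjusted p = 0.01), where the call ended without 5XFAD replicate 2 (adjusted p = 0.0635) and on log2(TPM + 1) values (adjusted p = 0.1).

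Tlr13 (chromosome X, 106143204 to 106160493, plus strand), a receptor of mice and not of humans that binds bacterial ribosomal RNA, had 6.67, 7.10 and 10.6 CPM in 5XFAD against 0.877, 2.71 and 2.71 CPM in wild type at 11 months. At 6 months it had 3.42, 3.81 and 3.15 CPM in 5XFAD and 1.27, 0.935, 1.67 and 1.39 CPM in wild type. It rose by 1.95 ± 0.34 on the log2 scale at 11 months (adjusted p = 0.00336), a call that ended when only the 2 groups of that age were fitted (adjusted p = 0.0587). At 6 months the difference of 1.39 ± 0.33 missed the threshold (adjusted p = 0.0575) although the genotypes did not overlap. It was called by DESeq2 (adjusted p = 0.00316), with the 2 groups of that age fitted alone (0.0108) and with no filter on low counts (0.0232). Both genes are X-linked, and by Xist and Y-linked counts 2 of 3 libraries were female in 5XFAD and 1 of 3 in wild type at 11 months, against 0 of 3 in 5XFAD and 2 of 4 in wild type at 6 months. With sex as a covariate the log2 fold changes were 1.63 for Tlr7 and 2.22 for Tlr13 at 11 months, and 1.56 and 1.16 at 6 months, with no change in which were called.

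Tlr3 (chromosome 8, 45395665 to 45411080, minus strand), the receptor for double-stranded RNA, had 12.5, 11.8 and 13.9 CPM in 5XFAD against 8.13, 10.9 and 8.62 CPM in wild type at 11 months, and 7.27, 8.38 and 8.67 CPM in 5XFAD against 6.47, 5.04, 5.90 and 5.47 CPM in wild type at 6 months. The genotypes did not overlap, but the difference was small and did not pass the test (0.47 ± 0.14, adjusted p = 0.0988 at 11 months; 0.50 ± 0.14, adjusted p = 0.128 at 6 months). At 11 months it passed without wild-type replicate 2 (adjusted p = 0.0338) and with DESeq2 (adjusted p = 0.0366). Astrocyte markers moved the same way: 3 of 7 rose at 11 months (median log2 fold change 0.29) and 1 of 7 at 6 months (0.20), and their part in the result was not tested.

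Tlr9 (chromosome 9, 106222598 to 106226883, plus strand), the receptor for DNA with unmethylated CpG, was the 1 gene of the 10 whose libraries overlapped between genotypes at both ages. It had 1.09, 0.968 and 1.90 CPM in 5XFAD against 0.638, 1.29 and 0.625 CPM in wild type at 11 months. At 6 months it had 0.199, 0.254 and 0.350 CPM in 5XFAD and 0.451, 0.447, 0.310 and 0.408 CPM in wild type, with 2 of the 3 5XFAD libraries below every wild-type library. Its difference had opposite signs at the ages on the log2 scale, 0.63 ± 0.37 at 11 months (adjusted p = 0.458) and -0.58 ± 0.44 at 6 months (adjusted p = 0.763), and neither passed.

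**Figure D2:**
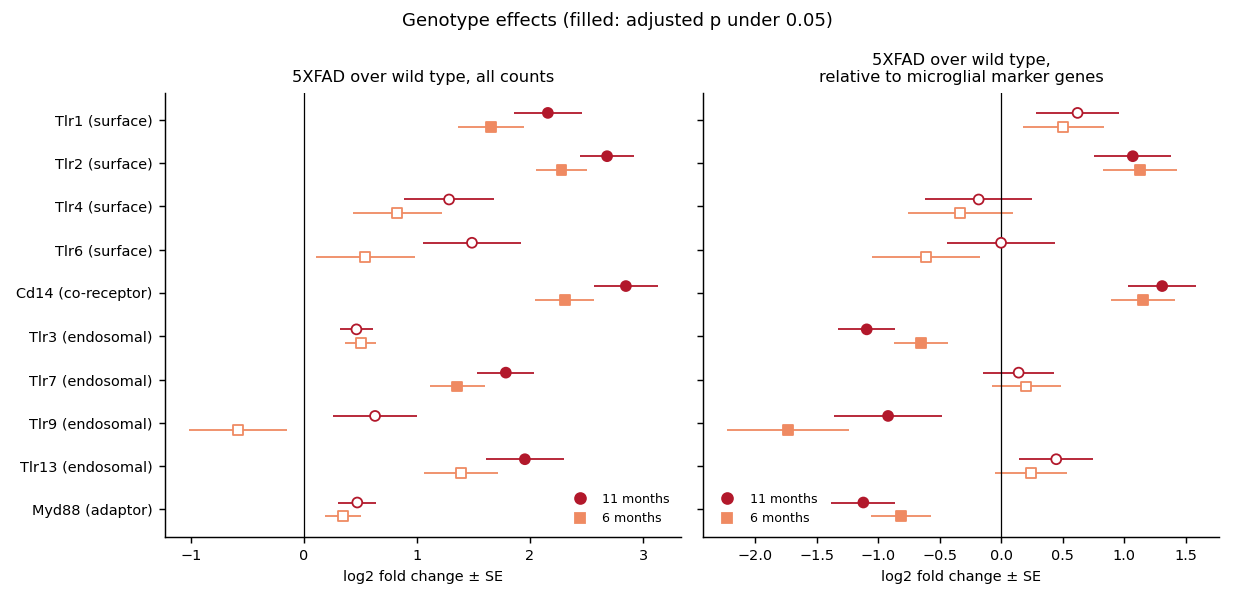
Log2 fold change with its standard error (horizontal axis) of each gene, 5XFAD over wild type, at 11 months (circles) and 6 months (squares), from all counts (left) and relative to the 22 microglial marker genes (right); filled symbols passed the test. From all counts Cd14 and Tlr2 lie farthest to the right. Relative to the markers both stay above 0 while Tlr3, Tlr9 and Myd88 lie below 0, all with filled symbols. Tlr4 and Tlr6 also lie below 0 there, Tlr6 at 11 months barely so (-0.001), with open symbols.

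Surface and endosomal receptors were set side by side on summed TPM, as a description with no test. The 4 surface receptors summed to 7.75, 6.08 and 8.62 TPM in 5XFAD against 1.66, 2.61 and 1.5 TPM in wild type at 11 months, and to 3.53, 3.36 and 3.48 TPM in 5XFAD against 1.30, 1.13, 0.95 and 0.96 TPM in wild type at 6 months. The 4 endosomal receptors summed to 11.96, 10.7 and 14.44 TPM in 5XFAD against 6.18, 7.11 and 6.25 TPM in wild type at 11 months, and to 5.49, 8.43 and 6.25 TPM in 5XFAD against 3.93, 3.49, 3.92 and 3.99 TPM in wild type at 6 months. Endosomal receptors thus made up the larger part of the transcripts in every library, and both sums were higher in every 5XFAD library than in any wild-type library of its age. The ratio of surface to endosomal receptors was 0.604 ± 0.040 in 5XFAD and 0.292 ± 0.067 in wild type at 11 months (SD). At 6 months it was 0.533 ± 0.124 in 5XFAD and 0.284 ± 0.050 in wild type. The genotypes did not overlap at either age. TPM did not always follow counts between libraries, a limit on these sums and ratios. Tlr7 in 5XFAD replicate 2 at 6 months had 2.94 TPM from 116 counts, against 1.41 TPM from 103 counts in replicate 3. The ratio in that replicate 2 was 0.399. Tlr6 in wild-type replicate 2 at 11 months had 0.87 TPM, against 0.61 to 0.81 TPM in 5XFAD. On CPM it was lower there, at 1.05 against 1.61 to 2.29.

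Tlr2 took 19.6% ± 0.69 of the summed TPM of the 8 receptors in 5XFAD and 7.99% ± 2.29 in wild type at 11 months, and 17.4% ± 5.21 in 5XFAD and 7.83% ± 1.67 in wild type at 6 months. Tlr3 took 27.3% ± 4.31 in 5XFAD and 48.3% ± 5.25 in wild type at 11 months, and 35.6% ± 2.16 in 5XFAD and 52.1% ± 3.85 in wild type at 6 months. Tlr2 thus took a larger share and Tlr3 a smaller one in 5XFAD, although the TPM of Tlr3 itself was not lower there. The ratio rested on this pair: with Tlr2 and Tlr3 left out it was 0.521 in 5XFAD and 0.49 in wild type at 11 months, and 0.588 in 5XFAD and 0.554 in wild type at 6 months. Within each class the members differed widely: the log2 fold changes at 11 months ran from 1.28 to 2.68 among surface receptors and from 0.47 to 1.95 among endosomal receptors, and 2 of 4 were called in each class.

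**Figure D3:**
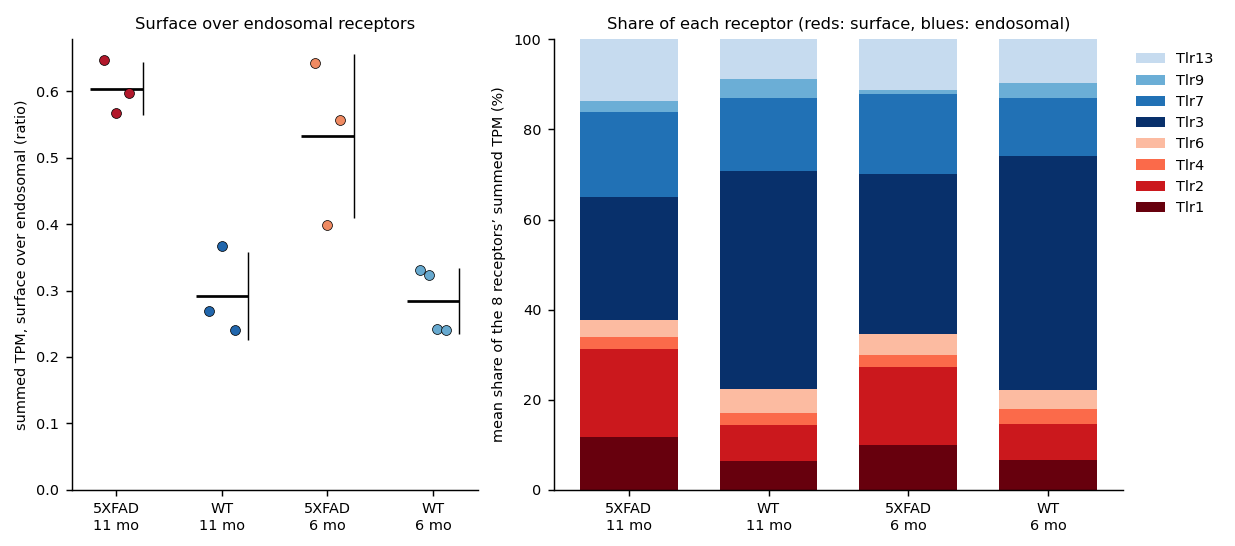
Left, ratio of summed TPM of the surface receptors to that of the endosomal receptors in each library (points), with group means and SD (lines). Right, mean share of each receptor in the summed TPM of the 8 (stacked to the whole), where Tlr3 fills 27.3% in 5XFAD and 48.3% in wild type at 11 months and Tlr2 19.6% in 5XFAD and 7.99% in wild type.

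The same comparison was then made relative to the microglial marker genes, by fitting all genes with each library scaled to the mean log2 count of the 22 markers. On this scale Cd14 and Tlr2 were called higher in 5XFAD and Tlr3, Tlr9 and Myd88 lower, while Tlr1, Tlr4, Tlr6, Tlr7 and Tlr13 did not pass in either direction. Of all genes 0.679% were called higher and 92.2% lower at 11 months, and 0.388% higher and 88.9% lower at 6 months, so the count of lower members is not particular to them. With so many genes called, the adjustment changed the p-values of this edgeR fit little. At 11 months Tlr9 went from 0.0408 unadjusted to 0.0441, and Tlr2 from 0.00145 to 0.00179. The adjusted p-values on this scale are thus hardly stricter than unadjusted ones. Cd14 stood at 1.31 ± 0.27 (adjusted p = 3.8e-05) at 11 months and 1.15 ± 0.26 (adjusted p = 0.000108) at 6 months on the log2 scale, and Tlr2 at 1.07 ± 0.31 (adjusted p = 0.00179) and 1.13 ± 0.30 (adjusted p = 0.00085). These calls held with the 10 homeostatic or the 12 general markers alone and without any 1 library of the age compared.

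Tlr3 stood at -1.09 ± 0.23 (adjusted p = 4.57e-05) relative to the markers at 11 months and at -0.65 ± 0.22 (adjusted p = 0.00674) at 6 months. For Myd88 the values were -1.12 ± 0.26 (adjusted p = 0.00015) and -0.82 ± 0.25 (adjusted p = 0.00266), and for Tlr9 they were -0.92 ± 0.44 (adjusted p = 0.0441) and -1.73 ± 0.50 (adjusted p = 0.00154). Whether cells other than microglia hold part of these transcripts was not tested. With the 10 homeostatic markers alone the 6-month calls of Tlr3 (adjusted p = 0.171) and Myd88 (adjusted p = 0.0745) ended, as did that of Tlr9 at 11 months (adjusted p = 0.247). The 11-month call of Tlr9 also ended without wild-type replicate 1 (adjusted p = 0.0553) or 2 (0.158) and without 5XFAD replicate 1 (0.117) or 2 (0.106). The other 5 genes lay between -0.18 ± 0.43 (Tlr4) and 0.62 ± 0.34 (Tlr1) at 11 months and between -0.61 ± 0.44 (Tlr6) and 0.51 ± 0.33 (Tlr1) at 6 months, and with the homeostatic markers alone Tlr1 was called higher at both ages (adjusted p = 0.00655 and 0.0225) and Tlr13 at 11 months (adjusted p = 0.0119).

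Between 11 and 6 months, transcripts of these genes were higher at the older age in 5XFAD cortex: 7 of the 10 rose and none fell, while 4.84% of all genes rose and 2.38% fell. Tlr9 had the largest log2 difference, 2.28 ± 0.42 (adjusted p = 0.0107), from the values given above. That difference rested on only 5 to 9 counts per library at 6 months, against 24 to 49 at 11 months. Tlr7 rose by 1.36 ± 0.25 (adjusted p = 0.0102), Tlr13 by 1.23 ± 0.33 (adjusted p = 0.0403), Tlr1 by 1.19 ± 0.28 (adjusted p = 0.0253), Tlr2 by 1.14 ± 0.22 (adjusted p = 0.0114), Cd14 by 1.0 ± 0.26 (adjusted p = 0.0363) and Tlr3 by 0.65 ± 0.14 (adjusted p = 0.0202). Tlr6 (1.42 ± 0.43, adjusted p = 0.0612), Tlr4 (0.94 ± 0.39, adjusted p = 0.153) and Myd88 (0.30 ± 0.17, adjusted p = 0.29) did not pass, though Tlr6 did with DESeq2 (adjusted p = 0.0239) and with the 2 groups fitted alone (adjusted p = 0.0168). For all 10 genes every library at 11 months lay above every library at 6 months, which held for 18.4% of all genes, with 17.3% the other way. These calls rested on few libraries: none of the 10 was called without 5XFAD replicate 3 at 11 months, 2 without replicate 1 or replicate 2 at 6 months, 4 without replicate 3 at 6 months and 3 without replicate 1 at 11 months. With sex as a covariate 5 were called, without Tlr1 (adjusted p = 0.0793) and Cd14 (adjusted p = 0.0696); the 5XFAD libraries at 6 months were all male. The call of Cd14 also ended with the 2 groups alone (adjusted p = 0.0815) and that of Tlr7 on log2(TPM + 1) values (adjusted p = 0.0601). The microglial markers were higher at 11 months in the same libraries, by the means given above, and 5XFAD replicate 3 had the highest sum of the 12 general markers, 2989 CPM against 2187 and 2380 CPM. Other cell types moved with age as well: 6 of 6 endothelial markers rose, with sums of 89.9 to 117 CPM at 11 months and 51.3 to 58.5 CPM at 6 months. Of 7 astrocyte markers 4 rose, with sums of 4087 to 4831 CPM at 11 months and 2593 to 2836 CPM at 6 months. Of the 9 genes of border macrophages and monocytes 5 passed the filter. Among these 5, 2 rose and 4 lay above 0, with a median log2 difference of 1.76. The 9 genes summed to 3.39 to 5.89 CPM at 11 months and 1.94 to 2.27 CPM at 6 months. The part of these cell types in the results was not tested.

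In wild-type cortex 1 of the 10 genes rose with age, Tlr3, by 0.69 ± 0.14 (adjusted p = 0.0256), where 2.41% of all genes rose and 1.28% fell. All 10 log2 differences were above 0, with a median of 0.68 against 0.02 over all genes, and Tlr7 (0.93 ± 0.25, adjusted p = 0.0513) came next to the threshold. Tlr7 passed with DESeq2 (adjusted p = 0.0124) and with sex as a covariate (adjusted p = 0.0444), and Tlr13 passed without wild-type replicate 1 at 11 months (adjusted p = 0.0224). The ages did not overlap for Tlr2, Tlr3, Tlr7 and Tlr9, against 9.12% of all genes, with 7.96% the other way. The call of Tlr3 ended without wild-type replicate 2 at 11 months (adjusted p = 0.131), without replicate 2 (0.0582) or 4 (0.0863) at 6 months, and when the 2 groups were fitted alone (0.142). Endothelial markers rose in 4 of 6 cases, with sums of 105 to 178 CPM at 11 months and 64.5 to 78.1 CPM at 6 months. Astrocyte markers rose in 1 of 7 cases, with sums of 2397 to 3795 CPM at 11 months and 2039 to 2183 CPM at 6 months. All 10 homeostatic and all 12 general microglial markers lay above 0, with median log2 differences of 0.51 and 0.53, and 0 were called. The mean log2 CPM of these markers was 4.87 ± 0.38 at 11 months and 4.40 ± 0.03 at 6 months. All 5 measured genes of border macrophages and monocytes lay above 0 (median 0.64), and 0 were called. The part of these cell types in the result was not tested. The genotype and age comparisons share libraries with each other, so they are not independent.

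Whether the genotype difference itself changed between ages was tested as an interaction. None of the 10 genes passed in edgeR (adjusted p = 0.999 for each), and 1 of 17518 genes did, 0.00571%. At an unadjusted p under 0.05 the interaction was met by 0 of the 10 and by 698 genes in all, and DESeq2 called 27 genes, none of them among the 10. The log2 differences between the ages ran from -0.04 ± 0.20 for Tlr3 to 1.21 ± 0.57 for Tlr9 (unadjusted p = 0.0519 by edgeR), so a change of that size cannot be separated from error with these libraries.

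Other genes of the pathway were read from 6 lists of 65 genes, of which 56 passed the filter on low counts. At 11 months 8 of the 56 rose and none fell, where 3.78% of all genes rose, and at 6 months 5 rose, where 1.3% of all genes did. The 9 accessory genes, a mixed list of binding partners, chaperones and transporters, held the largest number of these calls, with 4 higher at each age. Cd180, a relative of Tlr4 without a signalling domain, averaged 16.9 ± 6.4 CPM in 5XFAD and 2.15 ± 0.82 CPM in wild type at 11 months (2.97 ± 0.35, adjusted p = 0.000139), and its partner Ly86 averaged 78.2 ± 12 CPM in 5XFAD and 14.4 ± 3.6 CPM in wild type (2.44 ± 0.23, adjusted p = 2.76e-05). Slc15a3, a peptide transporter of endosomes, rose by 2.75 ± 0.30 (adjusted p = 6.28e-05) and Unc93b1, the chaperone that carries nucleic acid receptors to endosomes, by 1.31 ± 0.18 (adjusted p = 0.000523). At 6 months the 4 rose by 1.89 ± 0.32, 2.08 ± 0.21, 1.91 ± 0.28 and 0.78 ± 0.17 in the same order, and the call of Unc93b1 at that age (adjusted p = 0.0397) ended whichever of its 7 libraries was left out (adjusted p up to 0.217). Ly96, which binds lipopolysaccharide together with Tlr4, did not pass (0.91 ± 0.43 at 11 months, adjusted p = 0.328).

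Of 19 adaptors and kinases 1 rose at 11 months, near the 3.78% of all genes, Ticam2, an adaptor of Tlr4 (1.56 ± 0.40, adjusted p = 0.0427), and that call ended without any 1 of the 6 libraries of that age (adjusted p up to 0.229) and with sex as a covariate (0.0619). Of 8 transcription factors Irf5 rose by 1.31 ± 0.19 (adjusted p = 0.000619) and Irf7 by 1.74 ± 0.39 (adjusted p = 0.0198) at 11 months, and Irf5 by 0.95 ± 0.18 (adjusted p = 0.0128) at 6 months. The 6-month call of Irf5 ended when wild-type replicate 2, 5XFAD replicate 1 or 5XFAD replicate 3 was left out (highest adjusted p = 0.0845) and with sex as a covariate (0.0532). The 11-month call of Irf7 ended when 5XFAD replicate 3 or wild-type replicate 1 or 3 was left out (highest adjusted p = 0.112). It also ended with sex as a covariate (adjusted p = 0.0619), with the 2 groups alone (0.0746) and on log2(TPM + 1) values (0.0589). The NF-kB subunit gene Rela stood at 0.25 ± 0.12 at 11 months (adjusted p = 0.347). None of 12 negative regulators passed at either age, and their median was -0.06 at 11 months, close to the -0.03 of all genes.

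Of 12 target genes, 6 passed the filter and 1 rose, the chemokine gene Cxcl10, with 4.45 ± 1.3 CPM in 5XFAD and 0.203 ± 0.079 CPM in wild type at 11 months (4.42 ± 0.58, adjusted p = 0.000295). At 6 months Cxcl10 did not pass (1.44 ± 0.49, adjusted p = 0.299). Il1b, with 0.370 CPM in 5XFAD and 0.121 CPM in wild type at 11 months, did not pass (1.57 ± 0.69, adjusted p = 0.265). Tnf, Il6, Il10, Il12b, Cxcl1 and Ifnb1 were under the filter, as were Tlr8, Tlr11 and the lipid receptor Cd36. They had at most 29 counts in any library, and differences in them were not tested in the main edgeR fit. The other measured receptors, Tlr12 (1.08 ± 0.40, adjusted p = 0.175) and Tlr5 (-0.65 ± 0.55, adjusted p = 0.637), did not pass at 11 months.

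**Figure D4:**
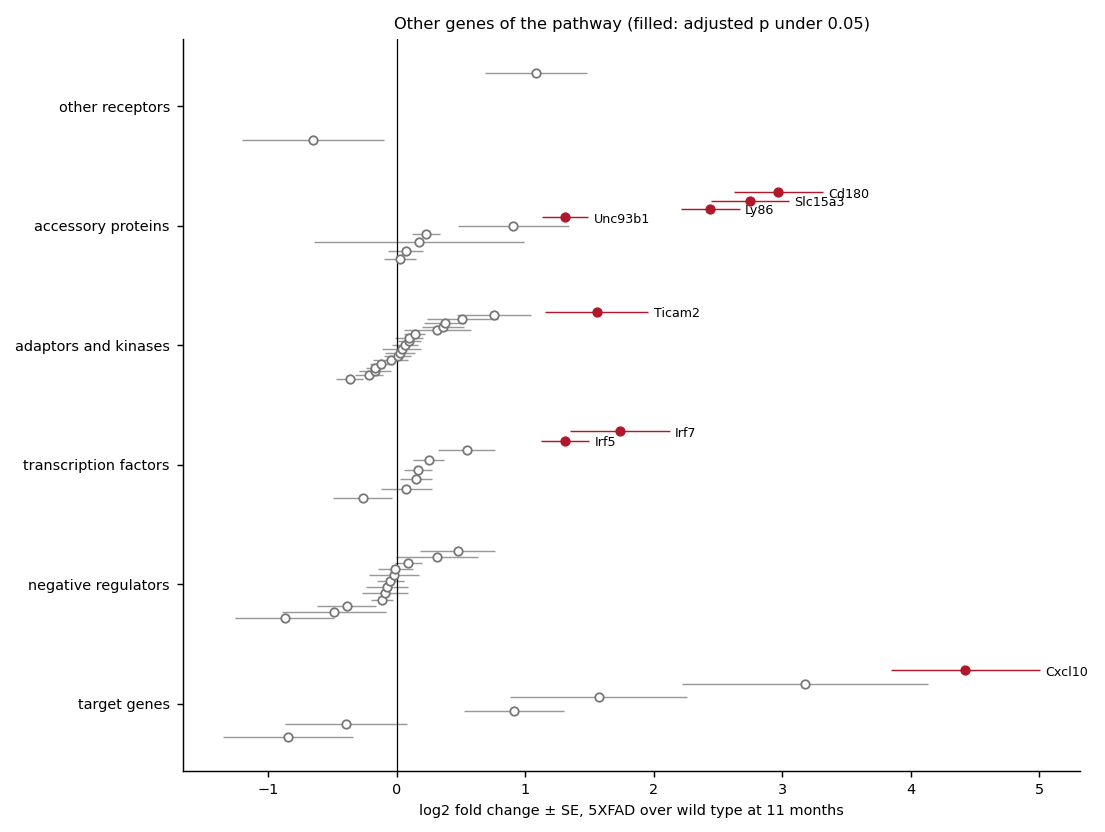
Log2 fold change with its standard error, 5XFAD over wild type at 11 months (horizontal axis), of the 56 measured genes in 6 lists of the pathway; filled and named symbols passed the test. The 8 called genes all lie above 0, and 4 of them are accessory genes, while adaptors, kinases and negative regulators gather around 0.

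The genes whose profile over the 13 libraries was most like that of a member were found by the root mean square difference of centred log2 CPM among 14923 genes with at least 1 CPM on average. For Tlr1 these were Ptpn6 (0.191), Irf8 (0.194) and Ptprc (0.204), for Tlr2 Gpr183 (0.268), Fcgr2b (0.278) and Gm8995 (0.285), and for Cd14 Fcgr2b (0.264), Tlr2 (0.297) and Ly86 (0.315). Those nearest to Tlr7 were Apbb1ip (0.253), Gpr34 (0.269) and Csf3r (0.277), and to Tlr13 Laptm5 (0.284), Ptprc (0.289) and Ctss (0.294). Tlr3 and Myd88 had other neighbours, Zfp36l1 (0.109), Ltbr (0.127) and Stk10 (0.142) for Tlr3 and Tspan14 (0.083), Edem2 (0.134) and Scpep1 (0.135) for Myd88. The measure depends on the size of the changes, so it favours genes with like folds. Gpr34, Laptm5, Ptprc and Ctss are among the 22 microglial markers. The mean of Tlr4, Tlr6 and Tlr9 was under 1 CPM, and they were not matched.

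Promoter sequences are shown for 3 receptors that rose, Tlr1, Tlr2 and Tlr13, and for Myd88, which did not pass, so that they can be read side by side. RefSeq (GRCm38.p6) gives promoters for 7 of the 9 genes looked up, and the 250 bases before the start were searched on both strands. The motifs were GAGGAA (a core of sites of PU.1, a myeloid transcription factor), GGGA and TTCC with any 2 bases between (a form of NF-kB site), GAAA repeated with any 2 bases between (a form of the interferon response element) and TATAAA. Where RefSeq gives 2 starts, as for Tlr1 and Tlr6, the one nearer to the 5′ end of the GENCODE gene was used; the RefSeq start of Myd88 lies 1393 bases within that gene. Each window is printed up to its first base in a GENCODE exon of the gene, 5′ to 3′ on the strand of the gene, with motif matches in capitals.
Tlr1, chr5:64933564-64933808, minus strand: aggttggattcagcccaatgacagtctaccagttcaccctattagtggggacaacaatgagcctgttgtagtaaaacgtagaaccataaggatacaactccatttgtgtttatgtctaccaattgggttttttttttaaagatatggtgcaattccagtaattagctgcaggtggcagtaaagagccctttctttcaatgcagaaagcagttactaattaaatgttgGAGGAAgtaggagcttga
Tlr2, chr3:83841768-83841858, minus strand: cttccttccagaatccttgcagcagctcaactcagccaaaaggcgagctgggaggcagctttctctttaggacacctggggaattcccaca
Tlr13, chrX:106143025-106143203, plus strand: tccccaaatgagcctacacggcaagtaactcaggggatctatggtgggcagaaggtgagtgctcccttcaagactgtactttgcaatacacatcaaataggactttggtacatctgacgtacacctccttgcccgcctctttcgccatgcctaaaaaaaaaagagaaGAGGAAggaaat
Myd88, chr9:119340042-119340268, minus strand: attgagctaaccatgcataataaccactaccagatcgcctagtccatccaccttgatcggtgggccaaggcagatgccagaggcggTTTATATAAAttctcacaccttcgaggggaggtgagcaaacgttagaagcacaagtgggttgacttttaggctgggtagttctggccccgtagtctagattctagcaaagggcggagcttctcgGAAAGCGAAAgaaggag

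GAGGAA began 23 bases before the start of Tlr1, 83 before that of Tlr13 and 112 before that of Tlr9, and 23.3% of all 32851 promoters of this length hold it. The interferon form was found in the window of Myd88 and in none of the other 6 used, against 2.98% of all promoters, while the second RefSeq window of Tlr6, which was not used, holds 2 overlapping matches. The NF-kB form was found in Tlr3 alone, against 1.21%, but there it lay within the span of annotated exons, since GENCODE starts the gene 700 bases upstream of the RefSeq start. TATAAA was found in Myd88, with 2 overlapping matches on opposite strands, and in Tlr6, against 12.4% of all promoters. No searched motif was found in the window of Tlr2, which says only that these letters are not in it. The Tlr2 window does hold ggggaattcc, which differs from the searched NF-kB form by a G in place of the A. Other forms of these sites were not searched. The matches describe the sequence and were not set against the expression values by any test.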

How the data were processed

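RNA of mouse frontal cortex was sequenced in 13 libraries, which their titles place in 4 groups. Per the submitters' processing notes the authors used STAR 2.7.1 and RSEM with GRCm38; the annotation and strand setting they used are not known here. The deposited expected counts share reads that fit several genes, and 7.24% to 7.71% of values per library were not whole. The deposited TPM were scaled by the authors for effective transcript length. All 55536 identifiers were found in GENCODE M21 (GRCm38), which gave symbols and coordinates.

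Expected counts were rounded, and filterByExpr of edgeR 4.0.16 (at least 10 counts in enough libraries, 15 in total) kept 17518 genes. After TMM scaling, 1 robust quasi-likelihood fit with 4 group means covered the 13 libraries (R 4.3.3). P-values were adjusted by Benjamini-Hochberg over all genes, with 0.05 as threshold, and ± marks the SE of a log2 fold change and the SD of a level. For values relative to microglial markers, the mean log2 count of 22 markers (0.5 added) replaced TMM. The fit was tested on simulated counts. The smallest chi-square per gene over the 78 library pairs was 6.10, so none was counted as a copy. Among wild-type libraries at 11 months it was 49.4 to 56.0, the widest spread of the 4 groups.

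The members and lists were chosen with earlier results of these data known. Named were the 10 members, list genes called in either genotype comparison (up to 5 per list) or under the filter, and the 3 nearest genes per member; Ly96, Rela, Il1b, Tlr12 and Tlr5 were added for their role after their values were seen. Alternatives were DESeq2 1.42.0, RLE scaling, no filter, limma 3.58.1 on log2(TPM + 1), the compared groups alone, sex as a covariate, other marker sets and each library left out.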

Additional observations from a re-analysis of the deposited data

How the results depend on the processing

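No paired analysis was possible because the titles give each library its own number and nothing ties libraries across groups. From all counts, none of the 10 genes changed the sign of its genotype difference at either age under any alternative run. Relative to the microglial markers Tlr4, Tlr6, Tlr7 and Tlr13 did in some alternatives, as given below. Members called higher at 6 months numbered 2 with log2(TPM + 1) and limma. In wild type with age they numbered 2 with sex as a covariate, 2 with DESeq2 and 0 with the groups fitted alone. All genes called higher numbered 137 with log2(TPM + 1) and 345 with DESeq2 at 6 months, and 418 with the groups alone at 11 months. With age in 5XFAD they numbered 563 with sex, 1499 with the groups alone and 1363 with DESeq2. With age in wild type they numbered 248 with sex, 0 with the groups alone, 265 with log2(TPM + 1) and 1018 with DESeq2, and for the interaction 4 with log2(TPM + 1) and 25 with DESeq2. On log2(TPM + 1) all genes had a median genotype difference of -0.118 (11 months) and -0.107 (6 months).

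Leaving out 1 library gave 133 to 203 genes higher at 6 months and 404 to 709 at 11 months, 87 to 630 with age in 5XFAD, 0 to 998 with age in wild type and 1 to 3 for the interaction. Members called higher then numbered 5 to 8 at 11 months, 0 to 5 with age in 5XFAD and 0 to 2 with age in wild type. The age difference of Tlr4 in wild type ran from -0.11 to 0.81, and the interaction from -0.12 to 0.10 for Tlr3 and from -0.070 to 0.24 for Myd88. With log2(TPM + 1) the interaction of Tlr6 was -0.044. Relative to the microglial markers at 11 months, Tlr4 ran from -0.37 to 0.18, Tlr6 from -0.21 to 0.22 and Tlr7 from -0.024 to 0.47.

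Relative to the homeostatic markers alone, 4 members were higher at 11 months and 1 lower at 6 months, and Tlr4 (0.21) and Tlr6 (0.39) turned positive at 11 months. Relative to the general markers alone, Tlr7 stood at -0.19 at 11 months and -0.072 at 6 months, and Tlr13 at -0.033 at 6 months. The surface to endosomal ratio was 0.509 in 5XFAD at 11 months on CPM, and without Tlr2 and Tlr3 it was 0.521 in 5XFAD and 0.49 in wild type at 11 months and 0.554 in wild type at 6 months. The cause of these changes was not tested. Tlr4, Tlr6 and Tlr9, with at most 59 counts in a library, are limited by depth.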
